A study of Mus musculus with 7 samples.

Results

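Among the gene models that young megakaryocyte progenitors already expressed at an authors' mean of at least 500 normalized counts, 22 were selected on these group means because the old mean was the higher one. They were taken from the 769 gene models of the authors' deposited table, after leaving out 13 named symbols and 10 symbol prefixes, which removed 6 gene models. The young mean and the direction of the change therefore chose these genes, and both are given as a description only. The libraries came from sorted bone marrow cells that were negative for lineage markers and Sca1 and positive for cKit, CD150 and CD41. All mice, young and old, were offspring of Flt3-Cre and mTmG parents. The mTmG reporter switches a cell and its descendants from Tomato to GFP once Cre has acted, here under the control of Flt3, a gene of multipotent progenitors. The young group has 3 libraries from mice aged 3 months. The old group has 4 libraries from mice aged 18 to 20 months, the upper age being the one in the growth protocol. Tomato-positive or GFP-positive fractions were sorted, and the titles carry 1 prefix for young and 2 for old. The labels do not explain the prefixes, so age and sorted fraction cannot be told apart. All strain labels read C57BL/6 except for 1 old library, labelled C57BL/7, and no label says whether libraries came from separate mice, so the p-values may measure technical spread only.

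Megakaryocyte progenitors are bone marrow cells committed to the lineage that makes megakaryocytes and, through them, platelets. They arise from stem and multipotent progenitor cells that also feed the erythroid and myeloid lineages, and they carry transcripts of general blood cell functions beside those of their own lineage. Genes already well expressed in such cells include housekeeping machinery and the adhesion, vesicle and signalling proteins that blood cells share.

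The check of the sorted identity was limited. Of 10 genes that define these progenitors, only Slamf1, which encodes CD150, has a value: its mean was 79.3 in young and 228 in old per the authors' deposited table (log2 fold change 1.54, SE 0.55, adjusted p = 0.0856). The other 9 were not analysed here. The values are group means without a value per library, so neither the spread between libraries nor an overlap of the groups could be shown, and each fold change carries the authors' standard error (SE). Granulocyte and monocyte markers differed between the same young and old groups: 21 of 30 were listed and 20 were called, all higher in old. The summed mean of the listed markers went from 5708 to 106526 in the authors' deposited table, with none of them at 0 in young. The part of those cells in the rise of the 22 genes was not tested.

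Genes listed as higher were few among abundant ones, on the authors' scaling. The authors' deposited table lists 331 gene models with a young mean of at least 500, and 28 of these were higher in old against 303 lower. The share that was higher was smaller at each step of the young level: 15 of 53 listed gene models between 500 and 1000 were higher (28.3%), 9 of 92 between 1000 and 2000 (9.78%) and 4 of 186 at 2000 or more (2.15%). Under a young mean of 50, 244 of 246 were higher. The young mean that sets these steps also enters each fold change, and only gene models with an adjusted p under 0.1 are listed. Part of this pattern may therefore be built in. The split was also counted at another scaling. Among gene models with a young mean of at least 500, 22 were called higher and 167 lower (11.6% higher). Once 0.39 was added to each log2 fold change, 28 passed as higher and 4 as lower (87.5%). Passing here means the largest unadjusted p of the authors' calls, applied to listed gene models only. The shift was fitted to the lower calls as a common offset, so their loss was built in and cannot show which scaling is right. The 22 genes also lay at the lower end of the abundant range. Their median young mean was 817 in the authors' deposited table and their highest was 2342 (Rnf167), while the median of the 303 gene models listed as lower was 2415. These counts are not corrected for gene length. The median merged exon length was 4272 bases for the 21 of the 22 with an annotated length and 3687 bases for the gene models listed as lower.

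**Figure D1:**
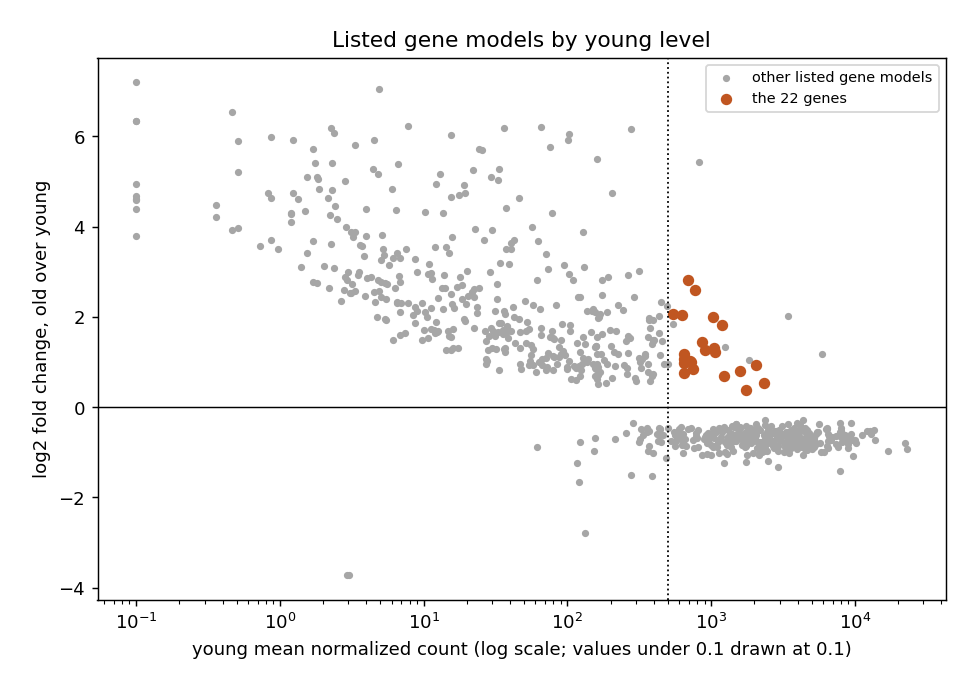
Log2 fold change (old over young, vertical axis) against the young mean normalized count (log horizontal axis) for gene models in the authors' deposited table, with the 22 genes in orange and the limit of 500 as a dotted line. They lie above 0 and mostly near the limit, over a dense band of gene models lower in old that reaches further to the right; 1 gene model beyond the vertical range is not drawn.

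**Figure D2:**
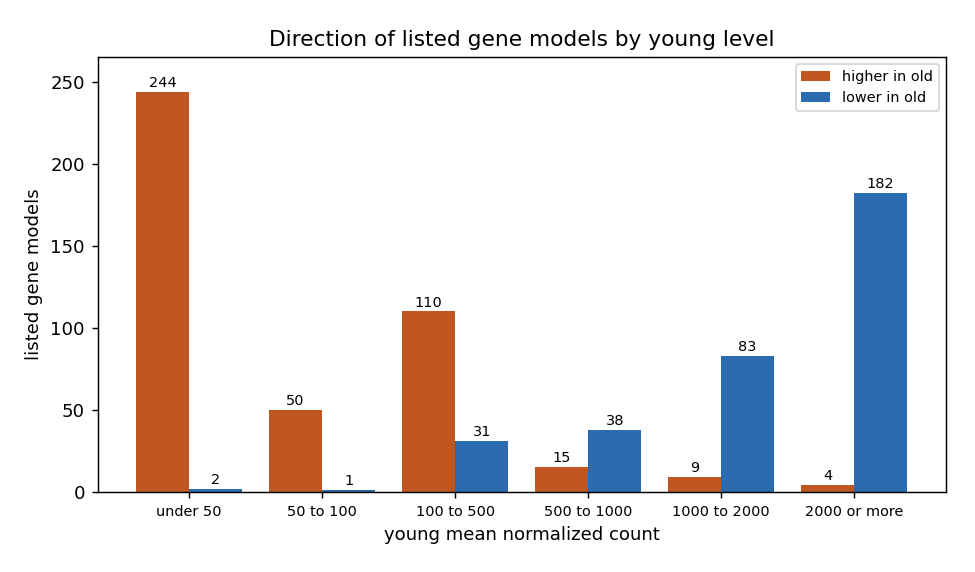
Number of listed gene models (vertical axis) that were higher (orange) or lower (blue) in old, by young mean normalized count (horizontal axis). On the authors' scaling the direction turns over with level, from 244 higher and 2 lower under 50 to 4 higher and 182 lower at 2000 or more. The young mean also enters the fold change, so part of this may be built in.

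Of the 22 genes, 16 passed the authors' adjusted p under 0.05, against 2.56% of all 11778 gene models tested that were called higher and 4.13% called in either direction. Nothing can be read from that contrast, since the table holds only gene models with an adjusted p under 0.1 and the rule used the direction. In the authors' deposited table, the 22 had a median of 1.12 for the log2 fold change, from 0.38 to 2.82, beside 2.13 for all 432 listed as higher (3.67% of those tested). Together their means summed to 22453 normalized counts in young and 56011 in old. The log2 fold change was at least 1 for 13 of them. In the order of fold change, each of the 21 neighbouring pairs differed by less than the SE of its difference (taking the SEs as independent), so the order of neighbours is not resolved. The SE ran from 0.13 (Fbxo9) to 0.96 (Clu) in the authors' deposited table. The smallest absolute test score of the 22 was 2.72, close to the lowest in the table, so a gene with a large SE could enter only with a large rise.

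**Figure D3:**
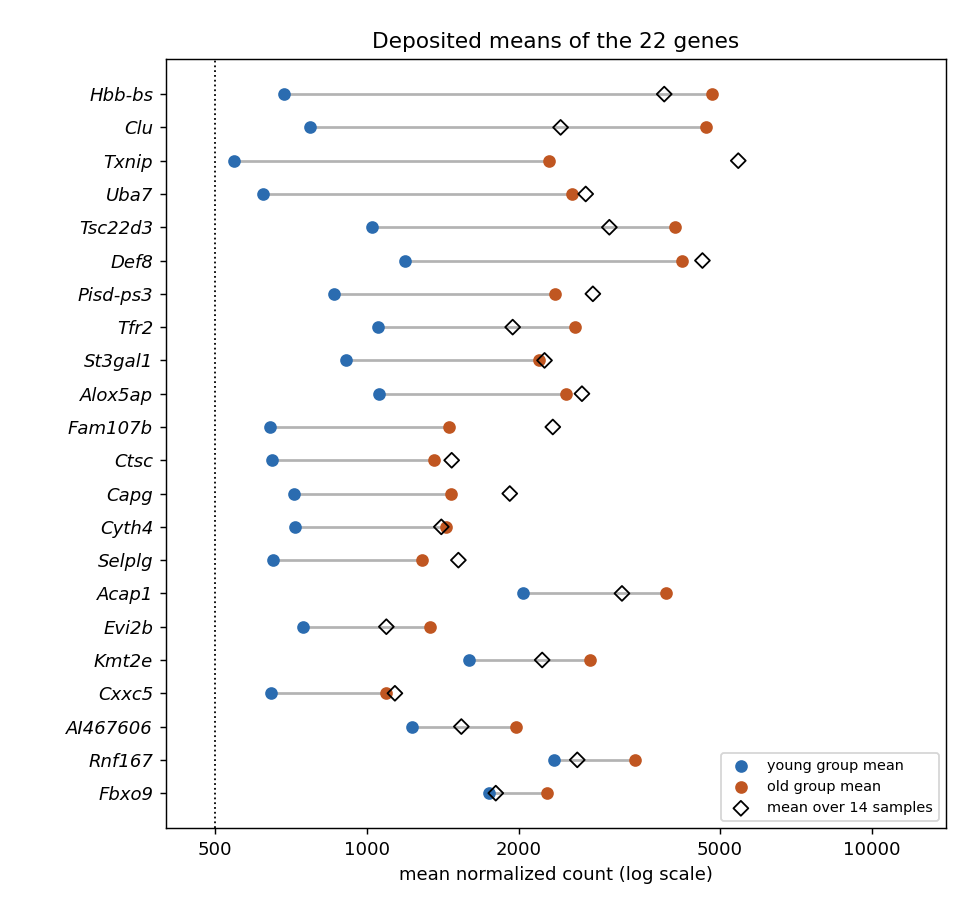
Mean normalized count (log horizontal axis) of the young group (blue), the old group (orange) and all 14 samples of the authors' fit (open diamonds) for each of the 22 genes, ordered by fold change; the dotted line marks 500. Every diamond lies to the right of the young mean, and for 11 genes it also lies to the right of the old mean.

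The genes of the cell surface and its glycans rose by 1.79-fold to 2.41-fold. Selplg encodes the mucin-like ligand that lets blood cells bind selectins, among them P-selectin on platelets and endothelium. It rose from a mean of 653 to 1284 normalized counts per the authors' deposited table (log2 fold change 0.98, SE 0.27, adjusted p = 0.0161). St3gal1 encodes a sialyltransferase that caps O-linked glycans of such mucin-like proteins. It rose from 911 to 2194 in the authors' deposited table (1.27, SE 0.41, adjusted p = 0.0471). Evi2b, a transmembrane protein of blood cells, had the smallest adjusted p of the 22 genes (adjusted p = 3.40e-04) with a modest change, from 747 to 1336 in the authors' deposited table (0.84, SE 0.18). In the annotation, 98.5% of the exon bases of Evi2b are shared with Evi2 on the same strand, so these reads cannot be assigned to one of them. P-selectin itself (Selp) lay just under the level limit, at 496 in young and 2358 in old in the authors' deposited table.

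A further 4 genes act on ARF GTPases, actin or endosomes, and only the ARF regulators among them passed the threshold. Acap1 encodes a GTPase-activating protein for ARF6 in endosomal recycling. It rose from 2038 to 3919 normalized counts per the authors' deposited table (0.94, SE 0.28, adjusted p = 0.0302). Cyth4, a cytohesin that loads ARF proteins with GTP, rose from 721 to 1434 in the authors' deposited table (0.99, SE 0.27, adjusted p = 0.0151). These genes act on ARF proteins in opposite ways, but their shared direction was set by the choice of genes. Capg, which caps the growing ends of actin filaments, stood at 718 and 1467 in the authors' deposited table without passing (1.03, SE 0.36, adjusted p = 0.0716). Def8, a protein that takes part in positioning lysosomes, stood at 1192 and 4211 in the authors' deposited table, also without passing (1.82, SE 0.59, adjusted p = 0.0508).

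Both genes of the lysosome and of lipid mediators rose. Ctsc encodes the dipeptidyl peptidase that activates the serine proteases of myeloid and lymphoid granules. It rose 2.09-fold, from 649 to 1359 normalized counts per the authors' deposited table (1.07, SE 0.28, adjusted p = 0.0101). Alox5ap encodes the membrane protein that hands arachidonic acid to the lipoxygenase that starts leukotriene synthesis. It rose 2.34-fold, from 1056 to 2476 in the authors' deposited table (1.23, SE 0.35, adjusted p = 0.0185). Both proteins are well known from myeloid cells, and the 21 listed granulocyte and monocyte markers had a median of 5.44 on the log2 scale in the authors' deposited table. The part of myeloid cells in the rises of Ctsc and Alox5ap was not tested.

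The 3 genes of the ubiquitin family differed widely in size of change. Uba7 (chromosome 9, 107975505 to 107984060, plus strand) encodes the enzyme that activates the ubiquitin-like protein ISG15 and is induced by interferon. It rose 4.09-fold, from 622 to 2545 normalized counts per the authors' deposited table (2.03, SE 0.47, adjusted p = 0.00173). A second, weaker Uba7 gene model, which was not among the 22, rose from 78.5 to 252 in the authors' deposited table (1.69, SE 0.51, adjusted p = 0.0301). Rnf167, a membrane-bound ubiquitin ligase of endosomes and lysosomes, had the highest young mean of the 22 and rose only 1.45-fold, from 2342 to 3399 in the authors' deposited table (0.54, SE 0.17, adjusted p = 0.0488). Fbxo9, a substrate-binding subunit of a cullin-based ubiquitin ligase, stood at 1744 and 2269 in the authors' deposited table without passing (0.38, SE 0.13, adjusted p = 0.0771). Its change was the smallest of the 22.

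Nuclear regulators and a redox protein formed a group with larger and smaller rises. Tsc22d3 (chromosome X, 140539528 to 140600659, minus strand) encodes the leucine zipper protein GILZ, a well known target of glucocorticoids. It rose 3.97-fold, from 1025 to 4067 normalized counts per the authors' deposited table (1.99, SE 0.54, adjusted p = 0.0129). Txnip (chromosome 3, 96557957 to 96561883, plus strand) encodes a protein that binds thioredoxin and restrains glucose uptake. It rose 4.19-fold, from 547 to 2292 in the authors' deposited table (2.07, SE 0.65, adjusted p = 0.0400). The antisense gene Gm15441 shares 19.4% of the exon bases of Txnip and stood at 92.0 in young and 329 in old in the authors' deposited table without passing (1.84, SE 0.65, adjusted p = 0.0807). The sources used here do not give the strand setting, so reads of these overlapping genes cannot be told apart. Kmt2e, a chromatin protein with PHD and SET domains that is needed for normal blood formation, rose 1.73-fold, from 1595 to 2763 in the authors' deposited table (0.79, SE 0.22, adjusted p = 0.0133). Cxxc5, a zinc finger protein that binds unmethylated CpG, stood at 647 and 1093 in the authors' deposited table without passing (0.76, SE 0.25, adjusted p = 0.0597).

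The widest changes were in a globin gene and in clusterin, and they were also the least precise. Hbb-bs, an adult beta globin gene, rose 7.05-fold, from 686 to 4835 normalized counts per the authors' deposited table (2.82, SE 0.82, adjusted p = 0.0232). Its near-identical neighbour Hbb-bt, which may share reads with it, rose from 292 to 1596 in the authors' deposited table (2.45, SE 0.75, adjusted p = 0.0342). They were the only listed genes of 14 erythroid markers, and the part of erythroid cells or their free RNA in the globin values was not tested. Tfr2, a transferrin receptor that senses iron in liver and erythroid cells, stood at 1051 and 2587 in the authors' deposited table without passing (1.30, SE 0.47, adjusted p = 0.0925). Clu encodes clusterin, a secreted chaperone that platelets also store in granules. It stood at 773 in young and 4698 in old in the authors' deposited table, a 6.08-fold difference that did not pass (2.60, SE 0.96, adjusted p = 0.0993). No adjusted p among the 769 gene models listed was higher.

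For the remaining 3 genes no role is stated. Fam107b rose from 643 to 1455 normalized counts per the authors' deposited table (1.18, SE 0.35, adjusted p = 0.0287). AI467606 rose from 1230 to 1976 in the authors' deposited table (0.68, SE 0.22, adjusted p = 0.0455). Pisd-ps3, by its symbol a pseudogene of the phosphatidylserine decarboxylase gene, rose from 862 to 2353 in the authors' deposited table (1.45, SE 0.47, adjusted p = 0.0491), and its reads may be shared with near-identical copies.

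**Figure D4:**
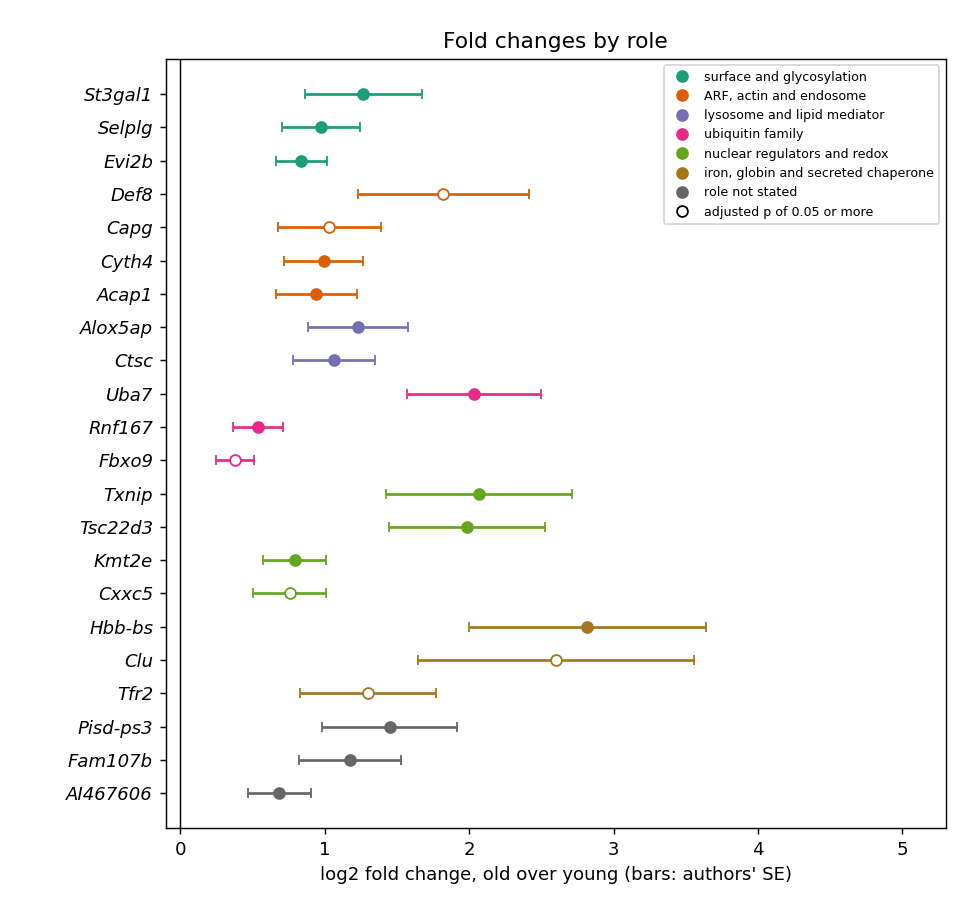
Log2 fold change (old over young, horizontal axis) with the authors' SE as bars for the 22 genes, coloured by role. Filled points passed an adjusted p under 0.05 and open points did not; the bars widen towards the largest changes, Hbb-bs at 2.82 and Clu at 2.60.

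Per length, the order of the levels changed. Dividing the young mean by the merged exon length of GENCODE M21 placed Hbb-bs highest, at 893 normalized counts per kb in young and 6295 in old. Alox5ap followed at 744 in young and 1743 in old per kb, and Rnf167 at 662 and 960. Uba7 was lowest in young, at 93.0 per kb, and reached 380 in old. Cyth4 was next to it at 95.4 in young and 190 in old per kb. No error can be attached to these levels, because the means carry none.

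The mean over 14 samples, which includes samples outside the 7 of this series, placed the young libraries at the low end for these genes. For all 22 it was above the young mean, and for 11 of them it was above the old mean as well, so that at least some of the other samples must have exceeded both groups. The gap was widest for Txnip, with a 14-sample mean of 5437 in the authors' deposited table, 9.95 times the young mean. Hbb-bs followed at 5.66 times the young mean and Uba7 at 4.36 times. Fam107b had a 14-sample mean of 2335, or 3.63 times the young mean and above the old mean of 1455. Capg (1919), Selplg (1518) and Def8 (4618) also had 14-sample means above both groups in the authors' deposited table. At the other end, Fbxo9 (1800) and Rnf167 (2610) had 14-sample means 1.03 and 1.11 times the young mean in the authors' deposited table. This place of the 14-sample mean was not particular to the 22 genes. It was above the young mean for all 432 gene models listed as higher. For 308 of those 432 (71.3%) it was above both group means, a larger share than the 11 of 22. Of the 303 gene models listed as lower above the same limit, 253 (83.5%) had a 14-sample mean below both group means. If the old mean rests on 4 libraries, the mean over the other 7 samples would exceed the young mean for 20 of the 22 genes and the old mean for 12. If it rests on 2 libraries, the counts would be 21 and 12. The rule used the young mean, so a low place of the young group is in part set by the choice of genes.

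The promoters of the 22 genes, where found, held fewer CpG dinucleotides by median than those of the genes listed as lower in old above the same level limit. Both sets include genes that did not pass an adjusted p of 0.05. RefSeq promoter windows (GRCm38.p6, 250 bases before to 50 after each start site) were found for 14 of the 22 genes, with 20 windows. The median was 10 CpG per window, also with 1 value a gene, against 22 over the 294 windows of 242 genes listed as lower with a young mean of at least 500 and 7 over all 32851 windows. Under 10 CpG were found in 7 of the 14 genes and in 9 of the 242 genes listed as lower (3.72%). Over all genes the share was 55.9%. This property was not used to choose the genes, but level and direction were, and no test was made. The difference held for GC content to a lesser degree, with medians of 58.0% for the 20 windows, 60.7% for the genes listed as lower and 52.7% for all windows. Uba7 and Hbb-bs had 2 CpG each, Evi2b 5 and Cyth4 6. Txnip had 24, Rnf167 23 and Fam107b 22, near or above the median of the genes listed as lower. The stretches of 250 bases before the start site that hold no annotated exon are shown for 4 of the 22 genes with few or many CpG and for Gtf3a, the gene with a promoter window and the smallest adjusted p among those that fell from a young mean of at least 500, with each CpG in capitals.
Evi2b, chr11:79523763-79524012, minus strand: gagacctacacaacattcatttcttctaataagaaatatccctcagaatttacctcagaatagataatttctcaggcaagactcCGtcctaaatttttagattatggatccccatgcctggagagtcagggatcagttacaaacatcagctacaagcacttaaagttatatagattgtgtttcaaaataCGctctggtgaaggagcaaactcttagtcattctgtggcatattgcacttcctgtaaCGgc
Cyth4, chr15:78596797-78597046, plus strand: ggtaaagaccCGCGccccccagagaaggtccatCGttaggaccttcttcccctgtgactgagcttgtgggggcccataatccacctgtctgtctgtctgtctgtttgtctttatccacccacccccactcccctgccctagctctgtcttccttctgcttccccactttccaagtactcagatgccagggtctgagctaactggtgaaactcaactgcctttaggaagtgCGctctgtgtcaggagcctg
Ctsc, chr7:88277835-88278084, plus strand: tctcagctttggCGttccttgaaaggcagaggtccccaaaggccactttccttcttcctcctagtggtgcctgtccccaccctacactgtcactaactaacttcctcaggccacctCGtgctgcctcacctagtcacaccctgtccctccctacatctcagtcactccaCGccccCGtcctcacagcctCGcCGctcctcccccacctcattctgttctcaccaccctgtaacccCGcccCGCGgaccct
Fbxo9, chr9:78108657-78108906, minus strand: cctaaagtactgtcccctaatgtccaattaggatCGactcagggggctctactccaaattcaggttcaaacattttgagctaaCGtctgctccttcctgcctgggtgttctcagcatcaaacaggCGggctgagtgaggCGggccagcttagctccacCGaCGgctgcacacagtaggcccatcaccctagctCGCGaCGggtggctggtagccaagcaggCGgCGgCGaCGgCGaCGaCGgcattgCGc
Gtf3a, chr5:146948407-146948656, plus strand: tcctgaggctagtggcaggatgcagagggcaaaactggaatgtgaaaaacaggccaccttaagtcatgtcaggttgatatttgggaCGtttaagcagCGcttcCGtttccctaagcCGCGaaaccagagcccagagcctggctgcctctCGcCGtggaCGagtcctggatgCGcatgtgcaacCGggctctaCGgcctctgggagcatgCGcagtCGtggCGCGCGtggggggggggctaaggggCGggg
These stretches hold 3, 4, 9, 17 and 17 CpG in that order. In Evi2b they lie scattered, while in Fbxo9 they crowd into the bases next to the start site.

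**Figure D5:**
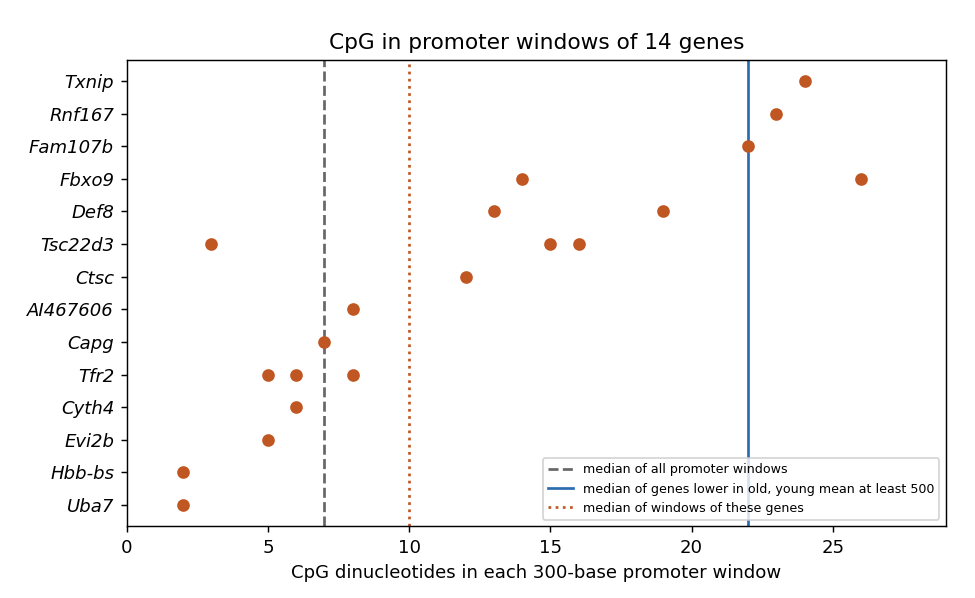
CpG dinucleotides in each 300-base promoter window (horizontal axis) of the 14 genes with a window, 1 point a window. The genes spread from 2 (Uba7, Hbb-bs) to 26 (Fbxo9), around a median of 10 (dotted), with the median of genes listed as lower above the level limit at 22 (solid) and of all windows at 7 (dashed).

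Short motifs were looked for on both strands of the same windows. The ETS-type motif CCGGAAGT was in 0 of 20 windows of the 22 genes, in 44 of 294 windows of the genes listed as lower (15.0%) and in 3.89% of all windows. The E-box CACGTG was in 0 of 20, in 39 of 294 (13.3%) and in 7.15%. The AP-1 type motif TGACTCA was in 3 of 20 windows, those of Fam107b, Uba7 and Hbb-bs, against 3.06% of the windows of genes listed as lower and 5.20% of all. An NF-kB consensus motif was in 1 window of Tfr2, and in 0.155% of all windows. The GATA-type motifs AGATAA and TGATAA were in 2 of 20 windows each, with 11.2% and 9.05% of all windows holding them, and CCAAT was in 6 of 20 against 37.4% of all windows. A core motif of interferon-stimulated response elements was in 0 of 20 windows, Uba7 included, and in 3.44% of all. A match is only a match of letters, and with 20 windows, some from the same gene, a difference of 1 or 2 windows changes these shares.

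The 21 genes with an annotated position (all but Pisd-ps3) lie on 12 chromosomes, with 4 on chromosome 5 and 3 each on chromosomes 7 and 11. The closest pair, Acap1 and Rnf167 on chromosome 11, is 0.75 Mb apart, and all other neighbouring pairs are over 8 Mb apart. Besides the overlaps of Evi2b and Txnip, 3.48% of the exon bases of Uba7 and 1.63% of those of Cxxc5 are shared with another gene on the same strand. Exons of Alox5ap (13.3% of its exon bases), Kmt2e (9.31%) and Rnf167 (5.34%) overlap a gene on the opposite strand. None of those opposite genes has a value in the authors' deposited table.

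Only 5 of the 22 genes stand in any of the 10 function lists compiled for these cells, so the lists mostly describe their surroundings. Their counts stand beside 2.56% of all gene models tested that were called higher and 4.13% called in either direction. As a share of all genes in a list, whether or not they were tested, the calls came to 18.1% for the interferon list, 12.5% for the lysosome list and 7.89% for the glycolysis, lipid and redox list. The other 7 lists lay between 0 and 6.90%, and no list was tested. In the lysosome and membrane trafficking list, 8 of 56 genes were listed, all higher in old and 7 of them called. The median of the 8 was 1.12 on the log2 scale in the authors' deposited table. Of these 8, Ctsb (5876 to 13242), Grn (1845 to 3800) and Ctsc (649 to 1359) had a young mean of at least 500. They rose by between 1.04 and 1.17 on the log2 scale in the authors' deposited table. The level and direction of the unlisted genes of that list are not known. In the interferon and inflammatory list, 16 of 72 genes were listed, all higher and 13 called, with a median of 1.41 in the authors' deposited table. None of these reached a young mean of 500, whereas Uba7, which stands in no list, did. In the glycolysis, lipid and redox list, 10 of 76 genes were listed as 11 gene models, of which 7 (of 6 genes) were called higher and none lower, with Alox5ap and Txnip among them. In the chromatin list, Kmt2e was the only listed gene of 73. In the actin, adhesion and small GTPase list 3 of 71 were listed, all higher, with Capg at the highest young mean beside Lcp1 (175 to 1236) and Rhoj (22.4 to 121) in the authors' deposited table. Of 58 genes in the list of megakaryocytes and platelets, 3 were listed. The coagulation factor gene F10 fell from 1133 to 560 in the authors' deposited table (-1.02, SE 0.26, adjusted p = 0.00780), Selp rose, and Mmrn1 did not pass. Among haematopoietic transcription factors 3 of 38 were listed: Erg and Spi1 rose, and Gfi1b stood at 6355 in young and 3480 in old in the authors' deposited table without passing (-0.87, SE 0.29, adjusted p = 0.0628). The receptor and kinase list had 3 of 73 genes listed and 0 called by the authors' DESeq test. A count at an unadjusted p is not possible over the genes outside the table. All 3 listed genes were under an unadjusted p of 0.05 in the authors' DESeq test, but so was every listed gene model, so this adds nothing. The RNA list had 2 calls in each direction of 58 genes and the cell cycle and repair list 1 in each of 61. The median over all 769 listed gene models was 0.95 on the log2 scale in the authors' deposited table.

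The listed markers of other cell types were all higher in old. The rule set the direction of the 22 genes, so a shared direction says nothing about them. Most markers in the lists below were not listed, so their direction is not known. All 4 listed of 13 dendritic cell and antigen presentation markers were called higher, with a summed mean of 496 in young and 10905 in old in the authors' deposited table. Of 14 mast cell, basophil and eosinophil markers 4 were called higher (27.2 to 1398 summed, 1 of them listed at 0 in young) in the authors' deposited table. Of 20 lymphoid and plasma cell markers 2 were called (3.26 to 42.4 summed), and of 15 stroma and endothelium markers 2 (36.6 to 458) in the authors' deposited table. The erythroid pair went from a summed mean of 977 to 6431 in the authors' deposited table. In bulk libraries, more cells of a type and more RNA per cell cannot be told apart, and the part of these cells in the 22 changes was not tested.

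The level limit cut through a continuous range. Of the 22 genes, the lowest young means were those of Txnip (547), Uba7 (622) and Fam107b (643) in the authors' deposited table. Sepp1, left out by its symbol, had 545. Just outside lay Tbc1d10c (498 to 960), Selp (496 to 2358; its symbol is also among those left out) and Hbp1 (470 to 912) in the authors' deposited table, with log2 fold changes of 0.95, 2.25 and 0.95. Among the next below it were Spi1 (458 to 1267), the master regulator of myeloid cells, and Trf (431 to 1760), which encodes transferrin, a ligand of the transferrin receptors, in the authors' deposited table.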

How the data were processed

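Trizol RNA was made into 7 NEBNext Ultra libraries, per the labels' protocols. The submitters' processing notes name Bowtie2, STAR, DESeq and mm10 without roles or versions. The sources used here give no counting method, strand setting or annotation. The deposited table holds group means of normalized counts (a scaled signal), log2 fold changes with SE, Wald test score, p-value and adjusted p-value, per the file headers. It lists 769 gene models with adjusted p up to 0.0993. The adjusted and unadjusted p-values as deposited imply 11778 gene models behind the Benjamini-Hochberg adjustment. Depth per library is unknown, so no counting interval was computed, and no model was fitted, because no value per library was given. The old column name matches no single title, and at most 4.08 old libraries are compatible with the mean over 14 samples.

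The genes and lists were chosen with earlier results of these data known. "Rose", "fell" and "called" mean an authors' adjusted p under 0.05. Values are given in full for the genes with the 12 smallest adjusted p, the 8 highest young means or the 8 largest fold changes and for those in a function list. In practice all 22 are given. Role groups were made after the values were seen. Genes were matched by symbol to GENCODE M21 (21 of 22; 717 of 769 gene models) and RefSeq promoters (GRCm38.p6, the same build as mm10). Counting the tests behind the adjustment and recentring were tested on simulated data. Alternatives were the level limit (250 or 1000), no symbol left out, an SE limit of 1, recentred fold changes and adjusted p limits of 0.01 and 0.1. Scripts used Python 3.11.15, pandas 2.3.3, numpy 2.4.6 and scipy 1.17.1.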

Additional observations from a re-analysis of the deposited data

How the results depend on the processing

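The number of genes and of calls depended on the limits, while the median fold change of each resulting set moved little. With a young mean of at least 250 there were 59 genes with 41 calls, and at 1000 there were 9 with 6 calls, against 22 with 16. At an adjusted p limit of 0.01, 2 of the 22 passed, beside 1.18% of all gene models tested that were called higher at that limit. Across the 7 alternatives for the median log2 fold change it stayed between 0.94 and 1.28 (main value 1.12), within the median SE of 0.35. Keeping all symbols gave 28 genes, and leaving out gene models with an SE over 1 removed none. Recentring all fold changes by 0.39, a shift estimated from the lower calls, raised every change by that amount and added 10 abundant genes listed as lower, for 32 in all. The recentred median of 1.28 is that of these 32 genes. For the 22 alone the median moved up by the full 0.39, more than the median SE. Among listed gene models with a young mean of at least 500, 22 higher and 167 lower calls (11.6% higher) became 28 higher and 4 lower (87.5%). Among all listed, the share went from 62.0% to 98.8% higher. After recentring, the limit was the largest unadjusted p of the authors' calls, without a new adjustment, and unlisted gene models could not enter. Because the shift was fitted to the lower calls, the loss of lower calls was built in. Which scaling is right cannot be read from a shift estimated in this way. No paired analysis was possible because the authors' table holds no values per library, and for the same reason no library could be left out.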
